A study of Mus musculus with 8 samples.

Results

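Genes of gamma-delta T cells and of the scavenger receptors found on them were followed in double-positive thymocytes, the immature T cells of the thymus that carry both CD4 and CD8. The 10 genes were the scavenger receptor genes Cd163l1 and 5830411N06Rik, the gamma chain segments Trgv4 and Trgv1, the transcription factor genes Sox13 and Zbtb16, the kinase gene Blk, the granzyme gene Gzma, and the membrane protein genes Tmem176a and Tmem176b. A probe set, the group of short probes that reads one transcript on the array, counted as a member when the array annotation gave it 1 of these symbols and no other. This rule found 17 probe sets for the 10 genes, out of 34945 probe sets for 18193 genes. The members were chosen with the difference between the groups and its spread already known. Their differences are therefore given as a description, without a test.

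RNA came from 8 mice aged 4 to 5 weeks, with 1 array for each mouse. The T-cell receptor alpha gene was deleted in both groups (Tcra-/-), so conventional alpha-beta receptors could not form, and both carried Cd4-Cre, a recombinase gene driven by control elements of Cd4, and their thymocytes were enriched on magnetic columns through CD4. The titles and the genotype field put 4 mice in the Control group (c-Myb sufficient) and 4 in the Mutant group (c-Myb deficient). The source names give the opposite genotypes, Mybf/f for the Control mice and Mybf/w, with 1 wild-type allele, for the Mutant mice, so directions follow the titles throughout. In these bulk samples fewer cells of a type and less RNA per cell cannot be told apart.

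Transcripts of double-positive cells were abundant in both groups, and some of them were lower in Mutant mice. On all 8 arrays Cd8a read 9754.6 to 11951.2 signal units, the recombinase gene Rag1 10569.3 to 12221.4 and Cd4 3227.6 to 4907.6, with no difference between the groups past the test (limma adjusted p = 0.768, 0.481 and 0.731). Of 8 double-positive markers 0 rose and 3 fell, against 5.89% of all genes tested called higher and 4.08% called lower. The 3 were Arpp21, lower by 0.77 (limma adjusted p = 0.000342), Rag2 by 0.41 (0.00557) and Dntt by 0.26 (0.0403). Myb, the targeted gene, read 8326.5 to 10387.9 in Control and 10511.9 to 11754.0 in Mutant mice (adjusted p = 0.0619). It was not lower in the Mutant mice, and the labels do not say whether these probes lie in the floxed part.

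Gamma-delta T cells carry a receptor built from a gamma and a delta chain in place of the alpha and beta chains, and they arise in the thymus at an early branch point. Those that later make interleukin-17 are known for SCART scavenger receptors, for the factors Sox13 and Maf, and for Blk, a kinase of the Src family. Zbtb16 encodes PLZF, the factor that directs innate-like T cells, among them natural killer T cells and some gamma-delta T cells. c-Myb is a DNA-binding factor of immature blood cells that binds short sites with an AAC core.

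Upstream sequence is shown for Cd163l1, 5830411N06Rik and Gzma, whose Control and Mutant arrays did not overlap and for which RefSeq gave a start site. Each line holds the 250 bases before an annotated start (RefSeq, GRCm38.p6), 5′ to 3′ on the strand of the gene, and capitals mark matches to the c-Myb site written as CAACNG or TAACNG on either strand.
Cd163l1, chr7:140218017-140218266, plus strand: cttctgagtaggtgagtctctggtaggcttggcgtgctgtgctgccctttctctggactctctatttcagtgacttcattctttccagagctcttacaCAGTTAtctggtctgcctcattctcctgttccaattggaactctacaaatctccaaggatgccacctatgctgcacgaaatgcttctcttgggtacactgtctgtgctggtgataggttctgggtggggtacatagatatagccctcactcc
5830411N06Rik, chr7:140247051-140247300, plus strand: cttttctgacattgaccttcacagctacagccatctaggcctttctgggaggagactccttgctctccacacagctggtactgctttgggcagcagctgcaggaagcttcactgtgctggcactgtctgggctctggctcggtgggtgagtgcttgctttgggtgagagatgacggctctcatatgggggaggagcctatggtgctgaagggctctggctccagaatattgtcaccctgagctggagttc
Gzma, chr13:113100982-113101231, minus strand: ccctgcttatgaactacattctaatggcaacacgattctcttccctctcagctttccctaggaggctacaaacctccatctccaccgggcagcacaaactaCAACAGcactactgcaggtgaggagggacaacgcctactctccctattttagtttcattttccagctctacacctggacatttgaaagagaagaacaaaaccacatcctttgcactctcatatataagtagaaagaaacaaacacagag

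The motif was present once before Cd163l1, on the minus strand, and once before Gzma, and these letters were not in the window of 5830411N06Rik. Of 32851 windows of 250 bases before annotated starts, 43.1% held it on either strand, so its presence is common. Start sites were found for 6 of the 10 members, with 11 windows in all, of which 2 held the motif. Those of Sox13, Tmem176a and Tmem176b did not, and Trgv4, Trgv1, Blk and Zbtb16 are named only. A match is a description of the letters and not of binding.

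Across the 10 genes, the scavenger receptor genes were far higher in Mutant mice, the gamma segments were about doubled to tripled, Gzma was moderately higher, and the Tmem176 genes lay at similar levels in both groups. Sox13, Blk and Zbtb16 stayed at or below the dim limit on most arrays. That limit, 33.8 signal units, is the median of the whole table, and a probe set was tested when it exceeded the limit on at least 4 of the 8 arrays. By this filter 12 of the 17 probe sets and 7 of the 10 genes could be tested.

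**Figure D1:**
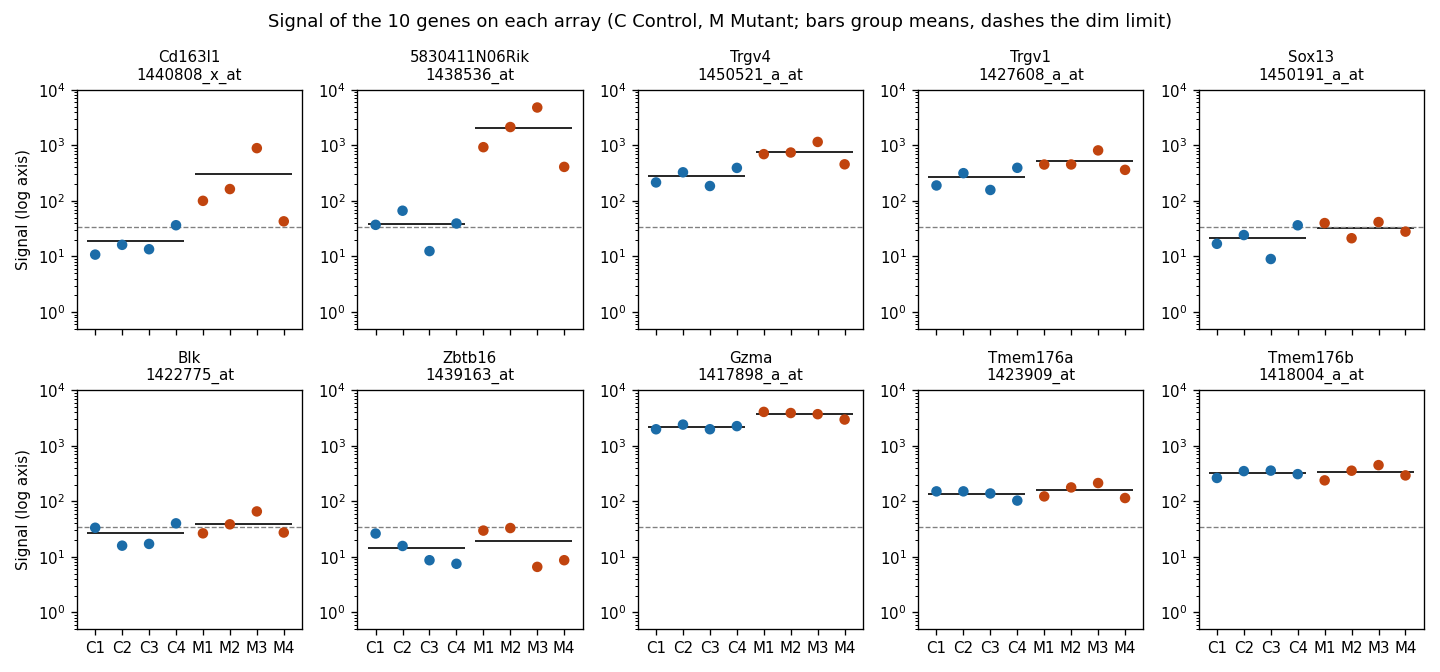
Signal on a log axis for each member gene on the 4 Control (C1 to C4, blue) and 4 Mutant arrays (M1 to M4, orange); horizontal bars are group means and the dashed line is the dim limit of 33.8. 5830411N06Rik read 409.5 or more on each Mutant array and 66.6 or less on each Control array, while Sox13, Blk and Zbtb16 lay around or under the limit.

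5830411N06Rik, also named Scart2, encodes a membrane protein of the scavenger receptor cysteine-rich family. Its only probe set, 1438536_at, read 37.1, 66.6, 12.5 and 39.2 in Control mice 1 to 4 and 927.0, 2136.2, 4800.7 and 409.5 in Mutant mice 1 to 4. The groups did not overlap: the lowest Mutant mouse lay 6.15 times above the highest Control mouse. Means were 38.9 ± 22.1 and 2068 ± 1960 (SD, n = 4 each), and the mean difference in log2(signal + 16) was 4.80 ± 0.61 (SE). Because the Control signals were near the dim limit, the size depends on the constant added before taking logs, and it was 5.35 with 1 and 3.89 with 64.

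Within the Mutant group 5830411N06Rik ranged over 11.7 times. Mutant 3 read 124 times the Control mean and Mutant 4 read 10.5 times. Since the Control mean lay close to the dim limit, these ratios are imprecise.

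Cd163l1, also named Scart1, encodes the related scavenger receptor and is the neighbour of 5830411N06Rik on chromosome 7. Its brighter probe set 1440808_x_at read 10.8, 16.2, 13.5 and 36.5 in Control mice and 100.3, 163.4, 890.9 and 42.9 in Mutant mice. The groups did not overlap, although Mutant 4 lay only 1.18 times above Control 4, and Mutant 3 stood far above the other Mutant mice. The mean difference was 2.43 ± 0.65 (SE) on the log2(signal + 16) scale, 3.13 with 1 and 1.59 with 64 added instead of 16, and 1.66 without Mutant 3.

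The other Cd163l1 probe set, 1455527_at, gave the same picture. It read 2.0, 19.4, 2.8 and 30.0 in Control mice, all below the dim limit, and 69.2, 126.8, 378.5 and 48.3 in Mutant mice, all above it. The geometric mean of the 4 Mutant arrays over the limit makes the mean signal at least 3.33-fold higher in Mutant mice, and Mutant 1 and Mutant 4 lay below that mean. This probe set passed the filter through the Mutant arrays alone. The brighter set 1440808_x_at had 1 Control array above the limit and 1438536_at of 5830411N06Rik had 3, so these also needed Mutant arrays to pass. The suffix _x_at marks probe sets that may also bind other transcripts, and the 1455527_at set does not carry it.

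Trgv4 and Trgv1 are variable segments of the T-cell receptor gamma chain, which join to a J segment to make a working gene. The brightest Trgv4 probe set, 1450521_a_at, read 215.1, 327.3, 185.4 and 392.8 in Control mice and 694.7, 742.9, 1152.6 and 455.7 in Mutant mice. All Mutant mice lay above all Control mice, with means of 280 ± 96.8 and 761 ± 289 (SD, n = 4 each) and a log2 difference of 1.38 ± 0.28 (SE). Both groups were well above the dim limit, so gamma transcripts were also present in the Control mice.

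The other Trgv4 probe sets differed by 1.20 ± 0.25 (1422189_x_at, 210.4 to 402.7 in Control and 454.0 to 1115.9 in Mutant mice) and by 1.16 ± 0.38 (1427802_a_at, 70.0 to 181.7 and 106.9 to 472.5). In the last of these the groups overlapped, since Mutant 4 read 106.9 and lay within the Control range. Trgv1 (1427608_a_at) read 189.7, 315.8, 157.4 and 394.3 in Control mice and 451.6, 452.7, 811.6 and 362.2 in Mutant mice, a difference of 0.96 ± 0.29 (SE). Here too Mutant 4 fell below Control 4, and the other Mutant mice lay above every Control mouse. Gamma segments resemble one another, and a further probe set is annotated to several of them, so signal cannot be assigned firmly to 1 segment.

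Sox13, Blk and Zbtb16 were dim. Sox13, a factor of the SRY box family, read 9.0 to 36.4 in Control and 21.3 to 41.6 in Mutant mice (1450191_a_at). Blk read 15.9 to 40.1 and 26.5 to 65.7 (1422775_at). Each of these exceeded the limit on 3 of 8 arrays and was not tested.

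Zbtb16 was below the limit on all 8 arrays with each of its 3 probe sets, the highest value being 33.0 for 1439163_at in Mutant 2. At this signal no difference between the groups was detectable for Sox13, Blk or Zbtb16, which does not show that their transcripts were absent.

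Gzma encodes granzyme A, a protease of cytotoxic granules. Its probe set 1417898_a_at was bright in both groups and read 1979.5, 2400.3, 1982.3 and 2254.2 in Control mice and 4065.8, 3879.1, 3700.4 and 2961.8 in Mutant mice. The groups did not overlap, the log2 difference was 0.75 ± 0.11 (SE), and the Mutant mice differed among themselves by 1.37 times at most. In contrast with the scavenger receptor genes, Mutant 3 was not the highest for Gzma.

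Tmem176a and Tmem176b encode related membrane proteins with several membrane spans that are known from dendritic cells and from lymphocytes that depend on the factor RORgt. Tmem176b (1418004_a_at) read 263.1, 349.3, 356.7 and 308.3 in Control mice and 238.1, 355.5, 447.7 and 292.3 in Mutant mice, and the log2 difference was 0.03 ± 0.18 (SE). Tmem176a (1423909_at) read 103.0 to 151.0 and 114.5 to 213.1, with a difference of 0.16 ± 0.20. For both genes the Mutant range spanned the Control mean, and the other Tmem176a probe sets differed by 0.02 and 0.29. Mutant 3 had the highest signal in each of these 4 probe sets.

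Of the 7 genes past the filter, 4 (5830411N06Rik, Cd163l1, Trgv4 and Gzma) had Mutant arrays that all lay above the Control arrays. Over all 9941 genes tested this held for 9.88%. The members were chosen on this contrast, so nothing is read from their count.

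The Mutant mice kept 1 order in the scavenger receptor genes and gamma segments. In all 7 probe sets of 5830411N06Rik, Cd163l1, Trgv4 and Trgv1, Mutant 4 was lowest, followed by Mutant 1, Mutant 2 and Mutant 3. Of the 10 other member probe sets 2 had this order. In the Control group, Control 4 was highest in 6 of the 7 probe sets, and the exception was 5830411N06Rik, which was highest in Control 2.

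**Figure D2:**
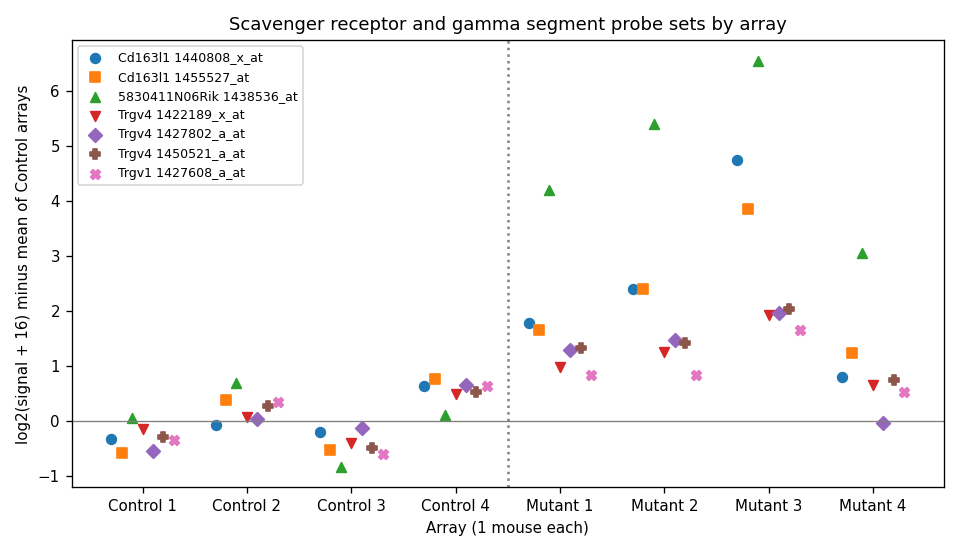
Log2(signal + 16) of the 7 scavenger receptor and gamma segment probe sets on each array, after subtraction of the mean of the 4 Control arrays; each symbol is 1 probe set. In all 7, Mutant 4 is the lowest and Mutant 3 the highest of the Mutant mice.

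The order was also found in other genes and in the median signal of the arrays. The same ranking of the Mutant mice was found in 834 of the 9941 tested genes (8.39%), in 25.6% of the 586 genes called higher in Mutant mice and in 2.71% of the 406 called lower. The reverse order was commoner over all genes (11.2%) and was found in 81 of the genes called lower. The median signal of the Mutant arrays was 30.0, 33.5, 36.0 and 37.9 for Mutant 4, 1, 2 and 3, a range of 1.26 times. After quantile normalization, which removes such shifts, the order remained in 6 of the 7 probe sets. For Trgv1 it changed, with Mutant 1 and 2 exchanged. Mutant 4 also had the highest signal of the ribosomal control probe set AFFX-18SRNAMur/X00686_5_at, 7142.7 against 676.1 to 1459.4 on the other arrays. The part of these array differences in the members' spread was not tested.

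Among the members, the spread between Mutant mice was widest for the scavenger receptor genes. The members were chosen with this spread known, so it and its ranks are a description only. The SD of log2(signal + 16) over the 4 Mutant mice was 1.68 for Cd163l1 and 1.51 for 5830411N06Rik, ranks 3 and 5 among the 9941 genes, whose median SD was 0.17. In Control mice the same SDs were 0.43 and 0.63. Most of these Control signals lay near or below the dim limit, where the added 16 narrows the SD. The other Cd163l1 probe set, 1455527_at, varied less in Mutant mice (1.15) and more in Control mice (0.67). As a ratio of signals it ranged over 15 times in Control and 7.84 times in Mutant mice. For 1440808_x_at these ratios were 3.38 and 20.8, and for 5830411N06Rik 5.33 and 11.7. Trgv4 and Trgv1 varied about equally in both groups, with SDs of 0.54 and 0.48 in Mutant and 0.48 and 0.58 in Control mice. Gzma varied little, with 0.20 and 0.14. Without Mutant 3 the SD fell to 0.81 for Cd163l1 and to 0.18 for Trgv1, so 1 mouse carried much of the spread of these genes.

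**Figure D3:**
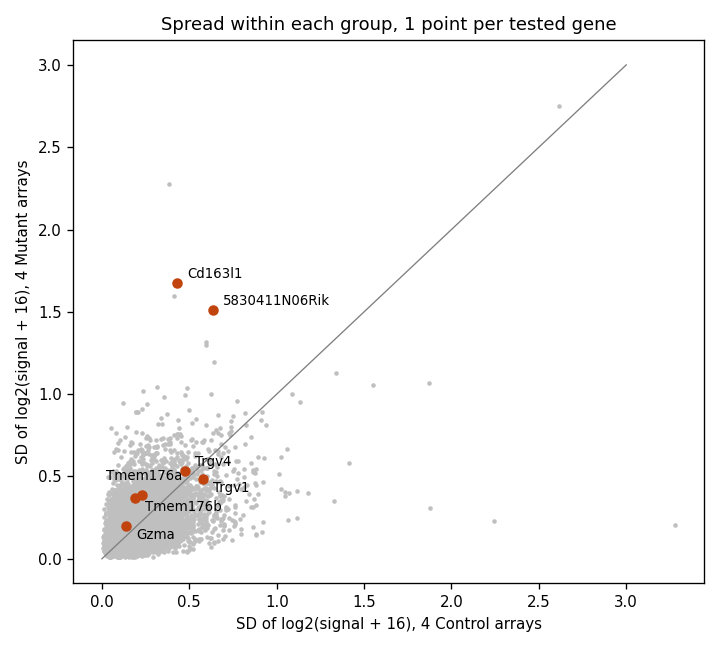
SD of log2(signal + 16) over 4 Control arrays (horizontal) and over 4 Mutant arrays (vertical) for each tested gene (grey), with the 7 tested members in orange and the line of equal spread. Cd163l1 and 5830411N06Rik lie far above the line, while Gzma and the Trgv genes lie close to it.

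The genes nearest in profile to 5830411N06Rik were found by the root mean square distance over the 8 arrays, in log2 units after subtraction of each gene's Control mean. They were Maf (distance 0.66), the AP-1 factor gene Fosl2 (1.0), the interleukin-18 receptor gene Il18r1 (1.28) and the chemokine receptor gene Ccr7 (1.28). Maf (1456060_at), a factor known from interleukin-17 producing gamma-delta cells, read 37.6, 46.4, 38.3 and 43.7 in Control mice and 1305.3, 1904.4, 2995.7 and 1149.2 in Mutant mice. Its Mutant mice had the same order as those of 5830411N06Rik but ranged over 2.61 times only. Fosl2, by comparison, ranked Mutant 1 lowest and read 707.0 to 1143.5 in Mutant mice. Its Control signals, 0.6 to 10.4, were all below the dim limit, so Fosl2 passed the filter through the Mutant arrays alone.

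For Cd163l1 the nearest genes were Btla (0.72), an inhibitory receptor gene, Gpr183 (0.75), an oxysterol receptor gene, Il17rc (0.79), a chain of the interleukin-17 receptor, and Gfra1 (0.80), a receptor gene for glial growth factors. Gfra1 (1439015_at) read 80.1 to 220.0 in Control mice and 620.2, 620.6, 1265.4 and 427.5 in Mutant mice. In all 4 of these genes Mutant 3 was highest and Mutant 4 lowest, which follows from how they were chosen.

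**Figure D4:**
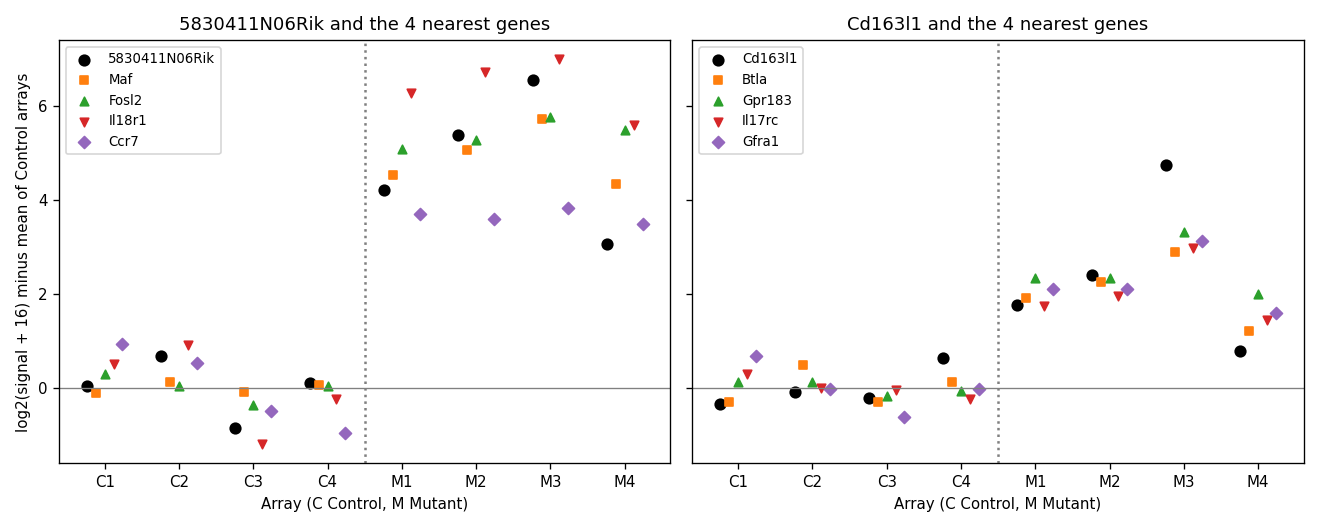
Log2(signal + 16) minus the mean of the Control arrays for 5830411N06Rik (left) and Cd163l1 (right), each with the 4 non-member genes of smallest distance, on the 4 Control (C) and 4 Mutant (M) arrays. 5830411N06Rik and Cd163l1 spread more widely over the Mutant mice than the genes nearest to them.

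Around the members, the tested genes of the interleukin-17 gamma-delta programme rose more often than they fell. Only 10 of the 18 listed genes on the array passed the dim filter. Of the others, Ccr6 and Il1r1 were below the limit on all arrays. Of 10 tested genes in this list 4 rose and 1 fell, with a median log2 difference of 0.55, against 5.89% of all genes called higher, 4.08% called lower (9.98% together) and a median of 0.02 over all genes. Maf rose by 4.91 ± 0.25 (SE, limma adjusted p = 2.63e-06), the interleukin-17 receptor chain gene Il17re by 2.14 ± 0.24 (adjusted p = 0.000463) and the nuclear receptor gene Rora by 1.19 ± 0.23 (adjusted p = 0.00841). The lymphotoxin gene Ltb rose by 0.93, and Sox4, a factor gene related to Sox13, fell by 0.67. These counts were the same in each fit without 1 array, but with the Xist level as a class in the model 1 gene rose and 0 fell. Maf, Il17re and Rora had Mutant 3 highest and Mutant 4 lowest.

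The innate-like T cell list, which holds genes that act with or under PLZF, moved in both directions: 3 of 16 tested genes rose and 4 fell, with a median of -0.03. Over all genes tested 5.89% were called higher and 4.08% lower. The interleukin-18 receptor genes Il18r1 and Il18rap rose by 6.39 ± 0.42 and 2.88 ± 0.36 (limma adjusted p = 1.85e-05 and 0.000899), and Ly9 rose by 0.52. In Control mice Il18r1 read 1.5 to 59.8 and Il18rap 5.3 to 37.2, near or below the dim limit. Both receptor genes passed the filter only with their Mutant arrays, and their sizes depend on the constant added before taking logs. Sh2d1a, the adaptor of SLAM receptors, fell by 1.36 ± 0.18 (adjusted p = 0.00116), along with Slamf1, Slamf6 and Cd1d1, whose products take part in the selection of natural killer T cells. The rises numbered 5 without Mutant 4 and 2 without Control 3, and with the Xist class 1 gene rose and 2 fell.

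Of 11 tested cytotoxic granule genes other than Gzma 4 rose and 0 fell, with a median of 0.32. The shares over all genes were 5.89% called higher and 4.08% called lower. The cathepsin gene Ctsw rose by 1.24 ± 0.33 (adjusted p = 0.0398), the granzyme inhibitor gene Serpinb9 by 0.90 ± 0.19 (0.0149), the proteoglycan gene Srgn by 0.38 ± 0.11 (0.0478) and Lamp1 by 0.28 (0.0286), all in limma. Prf1, which encodes perforin, differed by 0.21 (adjusted p = 0.575). The 4 rises became 0 without Control 3, 1 without Mutant 1, 2 or 3, and 2 without Control 1 or Control 4.

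Tested genes of the receptor list and of the scavenger receptor family changed little or in both directions. Those of the receptor list were CD3 chains and Cd27, with no gamma or delta chain. Among 5 tested genes of the gamma-delta receptor and signalling list, Cd27 rose by 0.35 ± 0.08 and Cd247, the CD3 zeta chain, fell by 0.25 ± 0.06 (limma adjusted p = 0.0207 and 0.0266). Both calls were lost without Mutant 1, Mutant 2 or Control 1, the fall of Cd247 also without Mutant 3, Control 2 or Control 3, and the other gamma and delta segments of the list are not analysed here. In the scavenger receptor cysteine-rich family 3 genes were tested: Lgals3bp rose by 1.10 ± 0.22 and Cd6 fell by 0.98 ± 0.15 (adjusted p = 0.0106 and 0.00221), and Cd5 differed by -0.30.

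Of 8 tested Src family kinases and their regulators, which belong with Blk, 0 rose and 1 fell, Syk by -0.50 ± 0.14 (limma adjusted p = 0.0441). That call was lost without Mutant 2, Mutant 3, Control 2, Control 3 or Control 4. Of 3 tested genes of the membrane-spanning 4-domain family, to which the Tmem176 proteins are related, Ms4a6b fell by 0.87 ± 0.18 (adjusted p = 0.0121). Of 11 tested factors with a BTB domain like that of PLZF 2 fell, Bcl6 by 1.02 ± 0.13 and Patz1 by 0.51 ± 0.10 (adjusted p = 0.000899 and 0.00963), and 0 rose. Beside these counts, 5.89% of all genes tested were called higher and 4.08% lower. Of the 13 rises in the 8 lists, 7 had the Mutant order of the scavenger receptor genes, against 25.6% of all 586 genes called higher. The lists were chosen with earlier results known, so nothing is read from this count.

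**Figure D5:**
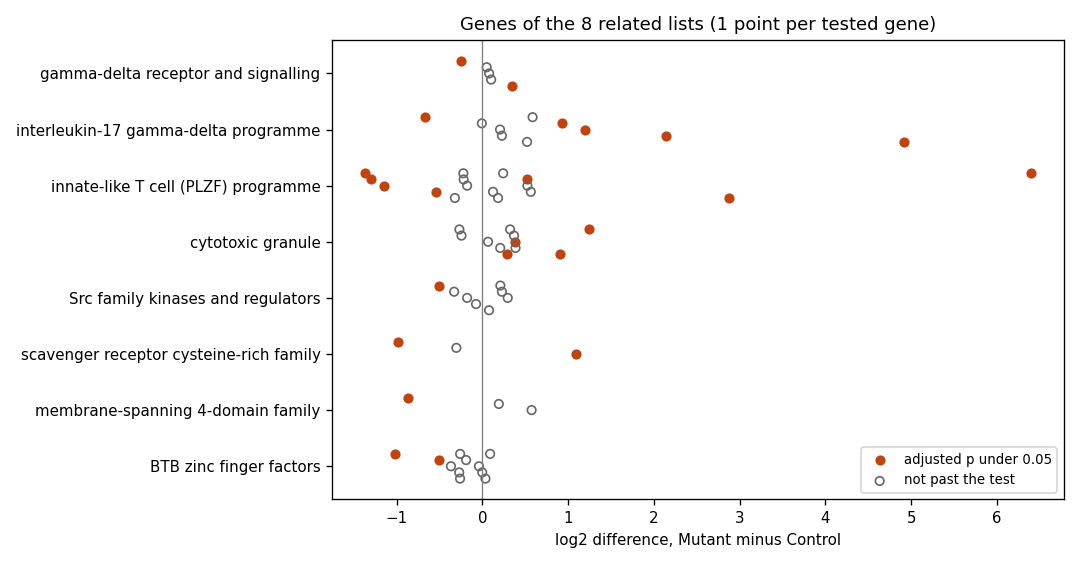
Log2 difference, Mutant minus Control, of each tested gene in the 8 related lists; filled points passed limma at an adjusted p under 0.05 and open points did not. The interleukin-17 gamma-delta list holds 4 filled points to the right and 1 to the left, and Il18r1 lies farthest right at 6.39.

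Markers of other cells were read beside the members. Some were below the dim limit and others were bright. Of 6 natural killer cell markers on the array 3 (Ncr1, Klra8 and Klre1) were below the dim limit on all arrays, and the list summed to 49.5 to 165.0 in Control and 113.5 to 237.3 in Mutant mice. Klrd1, a receptor gene of natural killer and cytotoxic cells, read 14.0 to 74.2 and 75.5 to 107.8, so the groups were only just apart. Mutant arrays all lay above the Control arrays in 9.88% of all genes tested. Klrd1 was the 1 marker of this list that was tested, and it did not pass (log2 difference 0.78). Of 4 markers of group 3 innate lymphoid cells 3 (Ccr6, Il1r1 and Ncr1) were below it, with sums of 48.4 to 85.8 and 82.8 to 117.8. The 10 macrophage and dendritic cell markers summed to 542.7 to 1470.3 and 1021.7 to 1324.4. Flt3 and Siglech were below the limit, and the cathepsin gene Ctss rose by 1.0 ± 0.28 (limma adjusted p = 0.0459). It was the 1 called gene of 7 tested in this list, against 5.89% of all genes called higher. The other 6 did not pass, and the median difference of the list was 0.07.

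Blk is also made by B cells. Among 7 B cell markers Cd79a, Ebf1 and Vpreb3 were below the limit on all arrays and 0 of 2 tested genes passed. The sums were 7121.6 to 7372.9 in Control and 7650.7 to 8599.3 in Mutant mice, higher in every Mutant than in every Control mouse. Such a separation was found in 9.88% of all genes tested. Most of the sum was Ighm, the mu heavy chain gene, with 6579.2 to 6880.5 and 7105.8 to 8077.6. The 8 double-positive markers summed to 56251.7 to 59384.0 in Control and 50889.3 to 54604.4 in Mutant mice, lowest in Mutant 3.

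Of 2 tested erythroid markers Car2 rose by 2.27 ± 0.23 (SE, limma adjusted p = 0.000293). The 3 erythroid markers summed to 231.7 to 434.9 in Control and 996.4 to 1446.6 in Mutant mice, highest in Mutant 4. Hba-a2 (86.0 to 113.8 and 82.1 to 110.1) and Alas2 (3.1 to 56.9 and 4.5 to 47.2) overlapped between the groups, so the higher sum was that of Car2. The 5 granulocyte markers summed to 58.1 to 105.8 in Control and 88.0 to 203.0 in Mutant mice, with Elane and Mpo below the limit. Of the 8 marker lists this was the one whose sum ranked the Mutant mice as the scavenger receptor genes did. That order was also found in the array medians and in 8.39% of all genes tested. The granulocyte signals were dim, with S100a8 the brightest at 33.1 to 91.4 in Mutant mice, and the 1 tested gene did not pass. The 6 thymic stroma markers summed to 790.2 to 833.7 and 538.4 to 803.7, with Col1a1 and Col3a1 below the limit. Most of that sum was Pecam1, with 651.1 to 711.8 in Control and 387.4 to 646.9 in Mutant mice. The part of these cells in the members' differences was not tested.

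The groups also differed in Xist, the RNA of the inactive X chromosome. It read 4128.7 to 5735.5 in all 4 Mutant mice, 4358.5 in Control 1 and 23.4 to 36.7 in the other Control mice. Control 1 read 37.1 for 5830411N06Rik, 10.8 for 1440808_x_at of Cd163l1, 215.1 for 1450521_a_at of Trgv4 and 1979.5 for Gzma. For each of these the value lay below the lowest Mutant mouse and within or under the range of the other Control mice. With the Xist level as a class in the model, which compares the Mutant mice with Control 1 alone, the differences were 4.75 ± 1.03 (SE) for 5830411N06Rik, 2.77 ± 1.09 for Cd163l1, 1.68 ± 0.45 for Trgv4 and 0.87 ± 0.17 for Gzma. Control 1 has no spread of its own there, and these SEs assume that it varies like the other arrays. In that fit 26 of all genes were called, and 4 genes of the 8 lists.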

How the data were processed

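In the deposited table each array has a linear signal intensity for every probe set. GCOS, software of the array's maker, produced it per the submitters' processing notes, which give no version. The 2% trimmed mean was 250.0 on each array, so arrays had been scaled to a common level, and differences in RNA content per cell cannot be seen. Of 45101 probe sets, 64 controls were left out, 34945 had 1 gene symbol, 932 several and 9160 none. Symbols were updated through the RefSeq table of GRCm38.p6 for 34741 probe sets.

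Signals were converted to log2(signal + 16). A gene was represented by its brightest probe set past the dim filter, which left 9941 genes. Groups were compared with limma 3.58.1 in R 4.3.3 (eBayes with a trend, two-sided, Benjamini-Hochberg over all 9941 genes, threshold 0.05), after a test on simulated data. Other tables and plots used Python 3.11.15, pandas 2.3.3 and matplotlib 3.10.9. On this scale the differences of dim genes come out too small. Precision is limited by the 4 arrays per group. Arrays of the same group correlated at 0.974 to 0.984 across probe sets, and at most 271 values of a pair were identical.

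The members and gene lists were chosen with earlier results of these data known. The text names the members, Xist, Myb, markers that check the cells, the 4 nearest profiles and, per list, up to 3 called genes with the largest change. Further genes of the lists were named after their values were seen. Detection calls and scan dates were not used here.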

Additional observations from a re-analysis of the deposited data

Results flagged for a closer look

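Of 112 sets of 4 replicate arrays that were looked at, 8 held a single value standing well apart, where about 1 in 20 would do so by chance. Among the members this concerned Cd163l1 (1440808_x_at), which read 890.9 in Mutant 3 and 42.9 to 163.4 in the other Mutant mice. Xist read 4358.5 in Control 1 and 23.4 to 36.7 in the other Control mice. Bcl6 read 1199.1 in Mutant 4 against 825.2 to 885.3, and Ms4a6b read 873.9 in Control 4 against 1028.2 to 1053.8. The others were genes near the scavenger receptors on chromosome 7: Mtg1 with 260.5 in Mutant 4 against 387.0 to 400.7, Echs1 with 529.0 in Mutant 4 against 672.8 to 700.4, Caly with 23.2 in Control 1 against 46.9 to 48.1, and Msx3 with 4.8 in Control 3 against 34.7 to 38.6.

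Outside the members, the probe set 1422188_s_at, left out because it is annotated to both Trgv4 and Trgv2, read 561.9 to 1252.5 in Control and 1271.7 to 3508.2 in Mutant mice, with a Mutant mean of 2297 ± 921 (SD, n = 4).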

How the results depend on the processing

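The number of genes called, 992, ranged from 494 to 1195 when 1 array was left out (494 without Control 3, 605, 515 and 578 without Mutant 1, 2 and 3, and 1195 without Mutant 4). It was 26 with the Xist level as a class in the model, where 1 Control mouse carries the group term. Of the 24 genes called in the 8 lists, 17 to 29 were called without 1 array and 4 with the Xist class. Of the tested members, 4 had groups that did not overlap, and 4 to 5 without 1 array. Leaving out an array cannot lower this number, so it is no check. With the replicate number as a block 1035 genes and 23 list genes were called. Deviations of same-numbered mice correlated at 0.00, 0.17, -0.27 and 0.36, and 1 of the 4 Control mice correlated best with its own number, so the numbers were not taken as pairs. Quantile normalization, constants of 1 and 64, no dim filter, other probe set choices and no variance trend gave 743 to 1333 calls, with 19 to 25 in the lists. No member whose groups did not overlap changed sign under any alternative run. Leaving out arrays or changing the added constant could not have reversed such a sign, so nothing is read from this. For Trgv4 another probe set was the brightest without Control 2 or without Mutant 1, and its differences were 1.22 and 1.27. Tmem176b ranged from -0.12 to 0.17 without 1 array. Signals near the dim limit restrict what can be said of Sox13, Blk, Zbtb16 and the Control levels of the scavenger receptors.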

Other observations

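The genes around Cd163l1 and 5830411N06Rik on chromosome 7 were looked at after the values of the members were known. Of 21 RefSeq genes around them, 10 on each side and an olfactory receptor gene inside the bounds of Cd163l1, 5 could be tested, and their differences ran from -0.38 to 0.60. Mtg1, which encodes a mitochondrial GTPase, rose by 0.60 ± 0.15 (SE, limma adjusted p = 0.0293), with 269.0, 235.5, 194.3 and 218.2 in Control and 387.0, 389.6, 400.7 and 260.5 in Mutant mice. Mutant 4 read below Control 1. Echs1, Fuom, Caly and Msx3 did not pass the test.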
